A study of Mus musculus with 15 samples.

Results

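Melanocytes kept for 24 h in low oxygen as the negative control of a gene silencing experiment were compared with the same line in normal culture. The members are the 3 arrays titled Hypoxia_NC (here the negative control) and the 3 titled Normoxia, 6 of the 15 arrays of the series, chosen by title. The cells were melan-Ink4a-Arf-1 (melan-a), an immortalized melanocyte line from Cdkn2a tm1RDp/tm1RDp mice. All groups share that deletion of the Cdkn2a tumour suppressor locus, and all grew at 37 °C in RPMI 1640 supplemented with 10% serum, cholera toxin at 200 pM and a phorbol ester at 200 nM. Normoxic cells had about 21% oxygen and 10% CO2. Negative control cells had 1% oxygen, 5% CO2 and 94% nitrogen. The labels describe transfection, 24 h ahead of hypoxia, for the cells given siRNA against Hif1a, and do not say what the negative control was given. Another group, Hypoxia_Ctrl (the hypoxia control, 3 arrays), went through the same low oxygen and is used here only to show where the negative control differs. Oxygen, CO2, the chamber and whatever the negative control was given differ together from normoxia, so their parts cannot be told apart. A single line is the only model, and other lines were not analysed here.

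Cells sense oxygen through prolyl hydroxylases that mark the alpha subunits of hypoxia-inducible factors (HIF) for destruction by the Vhl ubiquitin ligase. When oxygen is low the subunits persist, pair with Arnt and bind DNA at elements with the core letters ACGTG or GCGTG. Their best known targets supply glucose, run glycolysis, hold pyruvate back from mitochondria, and signal to blood vessels. Melanocytes make melanin in melanosomes under the transcription factor Mitf, and depend on growth signals through the receptors Kit and Ednrb.

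Levels are log2 intensities, on which a difference of 1 is a 2-fold change. Array medians over all 15 arrays lay between 6.52 and 6.61, the negative control arrays correlated with each other at 0.994 to 0.995, the normoxic ones at 0.993 to 0.994, and the groups with each other at 0.983 to 0.987. Pigment cell markers were bright in normoxia, from 9.10 (Kit) to 13.33 (Dct), against a median of 6.90 over all 22180 genes. Markers of fibroblasts, keratinocytes, immune, endothelial and Schwann cells had normoxic medians of 5.68, 6.09, 5.97, 6.08 and 7.30. The brightest marker of each read 9.35, 7.39, 7.93, 6.65 and 9.54, so the fibroblast and Schwann cell lists reached above Kit. Of those 26 markers 2 were called higher in the negative control (Mbp, Cd68) and 6 lower (Col1a1, Col1a2, Thy1, Cdh1, Lyz2, S100b). A second, dimmer probe set of Cdh1 (level 4.16 in normoxia) differed by 0.06. The fibroblast list, the longest, summed to between 45.0 and 45.8 log2 units on the normoxic arrays and between 43.5 and 44.3 on the negative control arrays. The Cdkn2a probe set read 8.05 in normoxia and 8.03 in the negative control; where it lies relative to the deletion was not given, so it checks nothing.

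The negative control differed from normoxia at 6723 of 22180 genes (30.3%; limma with Benjamini-Hochberg adjustment, adjusted p under 0.05). Of these, 3230 (14.6% of genes) were higher and 3493 (15.7%) lower. Counts of list members called against normoxia are to be read beside these shares. Large changes leaned upward, with 281 genes up by 2-fold or more (1.27%) and 109 down by as much (0.491%), and with 40 against 4 past 4-fold. All 3 negative control arrays stood above all 3 normoxic ones at 4235 genes (19.1%) and below them at 4592 (20.7%). Among the called genes, 6544 had groups that did not overlap. Each ± after a difference gives the standard error from limma (n = 3 and 3 arrays), and every adjusted p is from limma too. The median standard error was 0.076, and the median change over all genes was -0.0038. The series calls the arrays biological triplicates, and an exact permutation test of 3 against 3 could not go below p = 0.10.

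**Figure D1:**
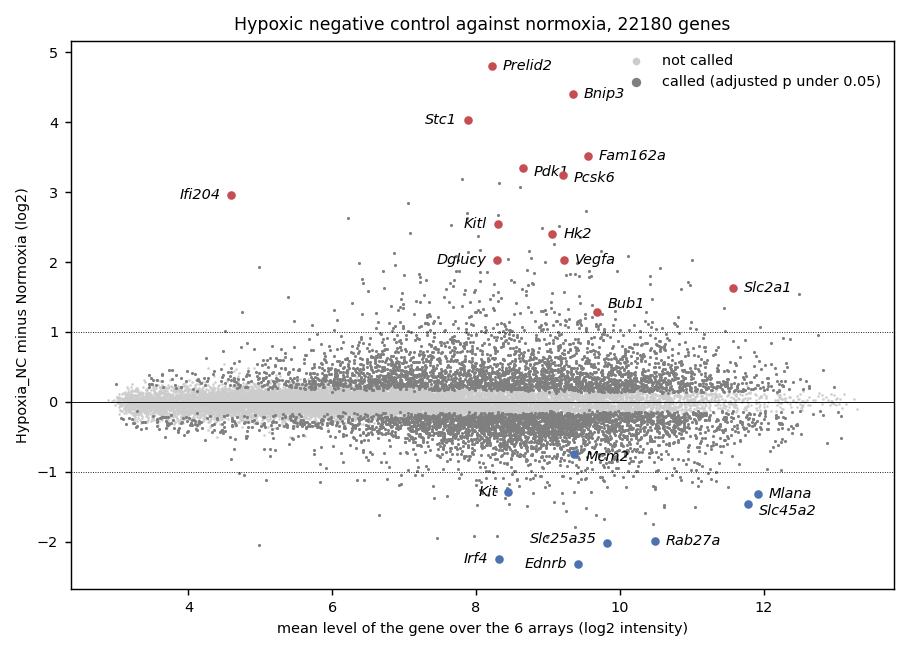
Difference between the negative control and normoxia (vertical, log2) against the mean level over the 6 arrays (horizontal, log2 intensity), 1 point per gene. Dark grey points passed the test, red and blue points are genes named in the text that were higher or lower, and dotted lines mark 2-fold; 281 genes passed above the upper line and 109 below the lower one.

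The largest rise belonged to Prelid2, a member of a family of mitochondrial lipid transfer proteins. Its normoxic arrays read 5.79, 5.59 and 6.07 and its negative control arrays 10.74, 10.54 and 10.60, a difference of 4.81 ± 0.10 (28.1-fold, adjusted p = 8.2e-14). Bnip3, which drives the removal of mitochondria by autophagy, went from 7.10, 7.21 and 7.12 to 11.56, 11.56 and 11.55 (4.41 ± 0.07, 21.3-fold, adjusted p = 3.4e-15). Prelid2 and Bnip3 were chosen among genes whose groups do not overlap, so the lack of overlap adds nothing. Their negative control arrays lay within 0.20 log2 units of each other. The secreted glycoprotein Stc1 read 5.70, 5.97 and 5.94 in normoxia and 10.02, 9.87 and 9.85 in the negative control (4.04 ± 0.09, adjusted p = 1.0e-13). The mitochondrial protein Fam162a rose by 3.51 ± 0.09, the proprotein convertase Pcsk6 by 3.25 ± 0.06, the lipoprotein receptor Vldlr by 3.20 ± 0.09 and the adaptor Plekha2 by 3.13 ± 0.08. Plekha2 has a second, dimmer probe set, which read 0.08.

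The promoters of Bnip3 and of Egln3, a HIF prolyl hydroxylase and so part of the pathway's negative feedback, are printed because both genes are among the 15 largest rises and hold the HIF core. They come from RefSeq (GRCm38.p6), from 250 bases before the start site to 50 after it, 5′ to 3′, at chr7:138909457-138909756, minus strand, and chr12:54203825-54204124, minus strand. Capitals mark ACGTG on either strand. In Bnip3 the matches on both strands overlap in CACGTG, which is also the E-box other factors bind.
Bnip3: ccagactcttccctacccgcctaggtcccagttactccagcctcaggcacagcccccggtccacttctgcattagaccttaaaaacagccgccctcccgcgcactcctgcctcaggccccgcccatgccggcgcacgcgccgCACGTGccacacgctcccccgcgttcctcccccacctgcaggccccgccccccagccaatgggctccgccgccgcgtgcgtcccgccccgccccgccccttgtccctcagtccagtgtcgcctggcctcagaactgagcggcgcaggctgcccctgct
Egln3: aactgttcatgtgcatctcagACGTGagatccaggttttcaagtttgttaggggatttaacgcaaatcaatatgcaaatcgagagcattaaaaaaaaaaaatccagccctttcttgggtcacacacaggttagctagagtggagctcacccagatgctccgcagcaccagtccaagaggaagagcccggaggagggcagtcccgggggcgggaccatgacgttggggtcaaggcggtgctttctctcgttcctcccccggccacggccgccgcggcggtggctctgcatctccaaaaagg
The capitals begin at position -108 in Bnip3 and -229 in Egln3, counting the start site as 0. Of 32851 mouse promoters in that table, 19.6% hold ACGTG on either strand, and 32.4% hold GCGTG. Of the 15 genes with the largest rises 10 were found there, and 6 of their 12 promoters hold ACGTG and 6 of 12 GCGTG. Among glycolysis genes 15 of 26 promoters hold ACGTG and 15 of 26 GCGTG. In the hypoxia adaptation list 18 of 28 hold the former and 18 of 28 the latter. These are counts of letters, not adjusted for base composition.

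Genes of HIF feedback and adaptation to hypoxia rose together. Of 25 measured (28 listed), 22 were called higher and 1 lower, with a median of 1.34. Among the oxygen sensors that act as feedback, Egln3 read 5.82, 5.68 and 5.40 in normoxia and 8.55, 8.76 and 8.13 in the negative control (2.84 ± 0.15, adjusted p = 1.5e-09). Egln1, the main HIF prolyl hydroxylase, rose by 1.80 ± 0.06. Egln3 was among the least even of the strong rises, with a spread of over 0.6 log2 units on the negative control arrays, yet its groups stood far apart. The carbonic anhydrase Car9 rose by 2.70 ± 0.11, although a second probe set gave 0.62. Higd1a, a mitochondrial protein, rose by 2.68 ± 0.08. The collagen prolyl hydroxylase subunits P4ha2 and P4ha1 rose by 2.63 ± 0.09 and 2.04 ± 0.05, and the lysyl hydroxylase Plod2 by 1.34 ± 0.09. The adenylate kinase Ak4 (1.80 ± 0.06), the mTORC1 inhibitor Ddit4 (1.57 ± 0.09) and the endoplasmic reticulum oxidase Ero1a (1.55 ± 0.05, and 0.77 by a second probe set) also rose. Ndrg1 rose by only 0.31 ± 0.04. Ppfia4 (0.13, adjusted p = 0.11) and the HIF competitor Cited2 (-0.08, adjusted p = 0.26) did not pass. The exception was the clock repressor Bhlhe41, which fell from 11.01, 11.03 and 11.14 to 9.89, 9.82 and 9.85 (-1.21 ± 0.06, adjusted p = 5.4e-10), while its paralogue Bhlhe40 rose by 0.83 ± 0.05.

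Most of the measured glucose uptake and glycolysis genes were higher in the negative control. Of 19 measured (22 listed), 15 were called higher and 0 lower, with a median of 0.91, while Gpi1, Aldoa and Eno1 were not analysed here. Hexokinase 2 (Hk2), which traps glucose in the cell, went from 7.81, 7.76 and 8.02 to 10.34, 10.24 and 10.20 (2.40 ± 0.07, 5.26-fold, adjusted p = 2.5e-12). The glucose transporters Slc2a3 and Slc2a1 rose by 1.96 ± 0.07 and 1.63 ± 0.05. A second, dimmer probe set of Slc2a1 (level 5.42 in normoxia) differed by 0.20. The phosphofructokinase subunits parted ways. Pfkp rose by 1.71 ± 0.05 and Pfkl by 1.67 ± 0.08, while Pfkm read -0.06 (adjusted p = 0.74). Lower glycolysis rose less, with Pgam1 at 1.09 ± 0.07, Pkm at 1.07 ± 0.05, Pgk1 at 0.95 ± 0.06, Ldha at 0.91 ± 0.07 and Tpi1 at 0.91 ± 0.05. The lactate exporter Slc16a3 rose by 1.66 ± 0.10. Gapdh, often used as a reference gene, read 12.55, 12.55 and 12.53 in normoxia and 12.49, 12.58 and 12.59 in the negative control (0.01 ± 0.05, adjusted p = 0.90), so its groups overlapped. Pfkfb4 (-0.01) and Eno2 (-0.05) did not pass either.

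Genes that steer pyruvate and glycogen split by isoform. Of 15 measured, 11 were called higher and 3 lower. Pyruvate dehydrogenase kinase 1 (Pdk1), which blocks pyruvate entry to the citrate cycle, went from 7.02, 7.18 and 6.76 to 10.41, 10.31 and 10.26 (3.34 ± 0.09, 10.1-fold, adjusted p = 1.3e-12). A second, dimmer Pdk1 probe set read 0.06. Pdk3 rose by 1.05 ± 0.07 and Pdk4 by 0.34 ± 0.08, whereas Pdk2 fell from 9.70, 9.78 and 9.75 to 8.66, 8.71 and 8.67 (-1.06 ± 0.06, adjusted p = 1.8e-09). The same list shows opposite isoforms in glycogen breakdown, where the liver-type phosphorylase Pygl rose by 0.73 ± 0.11 and the brain-type Pygb fell by 0.51 ± 0.05. Glycogen building genes rose, with the branching enzyme Gbe1 at 2.48 ± 0.06, glycogen synthase Gys1 at 1.68 ± 0.06 and the targeting subunit Ppp1r3c at 1.08 ± 0.09.

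The mRNAs of the HIF pathway itself moved little. Of 10 subunits and oxygen sensors, 2 were called higher and 1 lower, with a median of 0.02. The shares over all genes were 14.6% higher and 15.7% lower. Hif1a read 10.36, 10.30 and 10.35 in normoxia and 10.68, 10.66 and 10.56 in the negative control (0.30 ± 0.06, adjusted p = 6.9e-04). Its second probe set read -0.08, and with the mean of both the rise was 0.11 (adjusted p = 0.16). Vhl rose by 0.21 ± 0.07 (adjusted p = 0.033, up to 0.13 under the alternatives) and Arnt2 fell by 0.34 ± 0.05. Epas1, which encodes HIF-2 alpha, read 0.04 (adjusted p = 0.79). Among JmjC histone demethylases, which need oxygen to work, 6 of 13 were called higher and 3 lower, led by Kdm3a (1.28 ± 0.06) and Kdm4b (1.07 ± 0.06).

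Secreted factors that act on vessels rose in part. Of 19 measured, 12 were called higher and 3 lower, with a median of 0.67. Vegfa, the central vessel growth factor, read 8.13, 8.22 and 8.29 in normoxia and 10.20, 10.24 and 10.28 in the negative control (2.03 ± 0.05, 4.08-fold, adjusted p = 3.0e-13). The vasodilator peptides Adm and Apln rose by 2.54 ± 0.11 and 2.01 ± 0.10, the chemokine Cxcl12 by 1.53 ± 0.08, Pdgfb by 1.48 ± 0.08 and the placental growth factor Pgf by 1.43 ± 0.11. Of the genes named after Vegfa, Vegfb fell by 0.60 ± 0.06 and Vegfc by 0.22 ± 0.06, the latter with an adjusted p of up to 0.074 under the alternatives. Angpt1, Angpt2, Angptl4 and Edn1 did not pass. Their levels lay between 4.70 and 6.05 in normoxia, below the median gene.

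**Figure D2:**
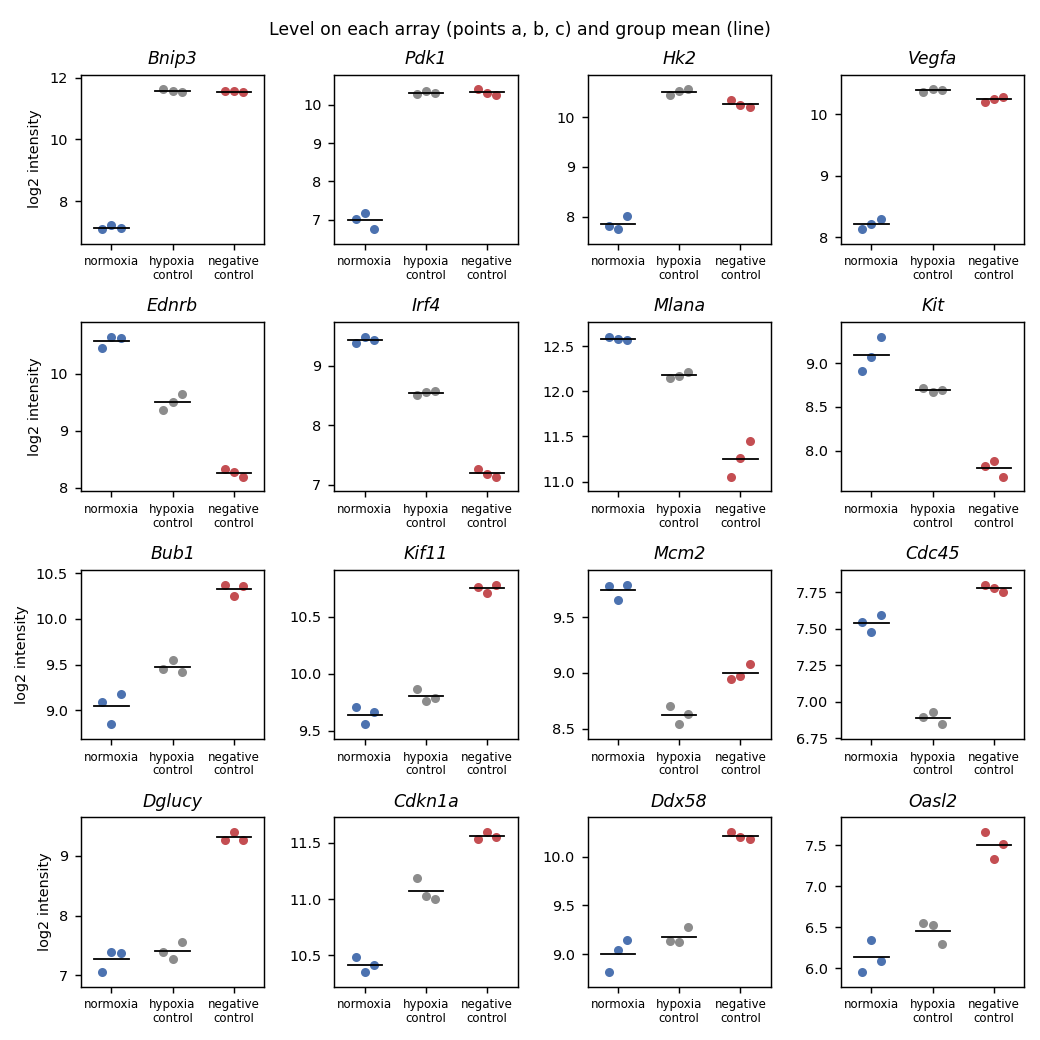
Levels (log2 intensity) of 16 genes on each array of normoxia (blue), the hypoxia control (grey) and the negative control (red), with group means as lines; each panel has its own vertical range. Bnip3, Pdk1 and Vegfa did not pass the test between the hypoxic groups, Hk2 was lower by 0.24 in the negative control, and the other 12 genes differed between these groups too.

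Pigment genes fell in the negative control. Of 11 melanin synthesis genes measured, 9 were called lower and 1 higher, with a median of -0.99. Tyrosinase (Tyr) catalyses the first steps of melanin synthesis and is a known Mitf target through the M-box, so its promoter is printed, from RefSeq (GRCm38.p6), at chr7:87493463-87493762, minus strand, with TCATGTG in capitals at position -22.
Tyr: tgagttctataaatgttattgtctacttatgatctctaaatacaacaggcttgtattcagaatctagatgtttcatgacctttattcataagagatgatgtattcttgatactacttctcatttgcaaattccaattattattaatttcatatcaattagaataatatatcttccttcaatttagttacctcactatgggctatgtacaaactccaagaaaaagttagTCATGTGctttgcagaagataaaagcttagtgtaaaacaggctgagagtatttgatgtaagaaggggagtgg
Of all promoters in the table, 3.77% hold TCATGTG on either strand, which itself contains the E-box CATGTG. The melanin synthesis genes found there hold it in 4 of 9 promoters, those of melanosome biogenesis in 1 of 18 and the 15 largest falls in 1 of 13. Tyr read 11.30, 11.27 and 11.27 in normoxia and 10.28, 10.30 and 10.30 in the negative control (-0.99 ± 0.07, to 50.5% of normoxia, adjusted p = 4.4e-08). Other members of the list fell further, with Gpr143 at -1.56 ± 0.07, Oca2 at -1.51 ± 0.06 and Slc45a2 at -1.47 ± 0.07. Mlana, a melanosomal protein, went from 12.60, 12.57 and 12.57 to 11.06, 11.26 and 11.45 (-1.33 ± 0.09, to 39.9%, adjusted p = 1.1e-08). Its negative control arrays were less even than its normoxic ones, and the groups did not overlap. The ion exchanger Slc24a4 fell by 1.07 ± 0.08, the fibril protein Pmel by 0.98 ± 0.06, Dct by 0.51 ± 0.06 and Mitf itself by 0.42 ± 0.05. Tyrp1, among the brightest genes, did not pass (-0.09, adjusted p = 0.22). The member called higher was the cystine transporter Slc7a11 (0.42 ± 0.07). Its second, dimmer probe set (level 4.18 in normoxia) differed by 0.00.

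Melanosome biogenesis and transport followed, with 12 of 18 genes called lower and 1 higher, and a median of -0.25. Rab27a, the GTPase that ties melanosomes to their motor, read 11.33, 11.53 and 11.59 in normoxia and 9.59, 9.48 and 9.40 in the negative control (-1.99 ± 0.08, to 25.1%, adjusted p = 3.3e-11). Its partners Mlph and Myo5a fell less, by 0.56 ± 0.05 and 0.64 ± 0.05. Among the complexes that build melanosomes, Hps3 fell by 1.51 ± 0.07 and Hps4 by 1.07 ± 0.06, while Ap3b1, Ap3d1, Bloc1s3 and Bloc1s6 did not pass. The copper pump Atp7a, which loads tyrosinase, rose by 0.32 ± 0.05.

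Of 15 receptors and lineage factors, 8 were called lower and 4 higher. Ednrb, the endothelin receptor of the lineage, was the largest fall of all named genes. It went from 10.45, 10.65 and 10.64 to 8.32, 8.27 and 8.19 (-2.32 ± 0.10, to 20.1%, adjusted p = 2.1e-10). Irf4, a transcription factor of pigmentation, went from 9.39, 9.49 and 9.44 to 7.27, 7.18 and 7.14 (-2.24 ± 0.06, to 21.1%, adjusted p = 1.9e-12). The growth factor receptor Kit fell from 8.91, 9.08 and 9.30 to 7.82, 7.88 and 7.70 (-1.30 ± 0.11, adjusted p = 2.9e-07). Kit's ligand Kitl, which was chosen after its values were seen, went the other way, from 7.01, 7.01 and 7.08 to 9.65, 9.57 and 9.50 (2.54 ± 0.06, adjusted p = 3.0e-13). The master regulators changed less, with Pax3 at -0.39 ± 0.05 and Sox10 at -0.23 ± 0.05. Mcam, an adhesion molecule of melanoma, rose by 0.66 ± 0.05, and Bcl2, Snai2 and Lef1 by 0.21 to 0.33. A second, dimmer probe set of Bcl2 (level 5.53 in normoxia) differed by 0.02. In bulk RNA, fewer cells that carry a transcript and less of it per cell cannot be told apart.

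**Figure D3:**
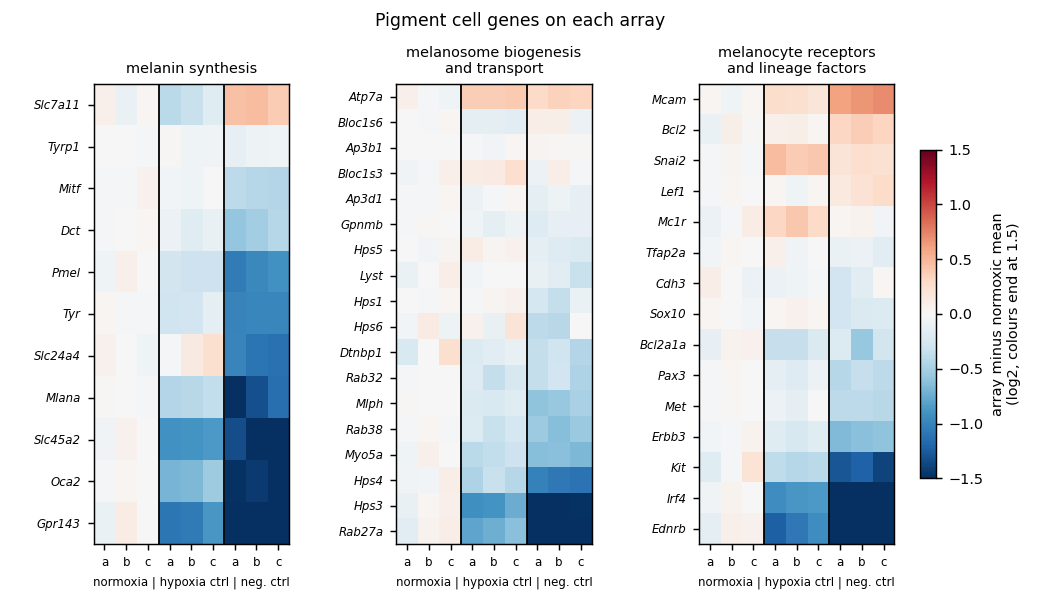
Pigment cell genes of the 3 lists (rows) on the 9 arrays of normoxia, the hypoxia control and the negative control (columns a, b, c in each), as the difference of each array from the normoxic mean (log2; colours end at 1.5 in either direction). Ednrb, Irf4 and Rab27a pass the end of the blue scale on all 3 negative control arrays, and the hypoxia control lies between for most of the genes that fell.

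Mitosis genes rose without exception. All 20 measured (21 listed) were called higher than in normoxia, with a median of 0.87. Mitotic genes are known to carry the cell cycle homology region, TTTGAA, near their start sites, so the promoters of the kinesin Kif23, which acts in cytokinesis, and of the kinetochore protein Cenpf are printed from RefSeq (GRCm38.p6), at chr9:61946750-61947049, minus strand, and chr1:189688037-189688336, minus strand. Capitals mark TTTGAA, at position 2 in both.
Kif23: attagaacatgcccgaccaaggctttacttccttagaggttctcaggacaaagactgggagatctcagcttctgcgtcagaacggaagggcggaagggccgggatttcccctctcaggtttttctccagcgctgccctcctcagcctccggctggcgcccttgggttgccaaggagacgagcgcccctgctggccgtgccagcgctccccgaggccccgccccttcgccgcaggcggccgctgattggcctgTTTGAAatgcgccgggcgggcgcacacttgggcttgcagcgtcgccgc
Cenpf: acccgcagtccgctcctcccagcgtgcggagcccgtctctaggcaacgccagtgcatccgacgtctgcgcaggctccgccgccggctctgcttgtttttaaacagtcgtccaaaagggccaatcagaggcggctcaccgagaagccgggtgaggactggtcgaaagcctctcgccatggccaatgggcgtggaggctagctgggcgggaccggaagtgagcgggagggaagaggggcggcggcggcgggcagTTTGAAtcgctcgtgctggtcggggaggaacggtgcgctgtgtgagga
TTTGAA, on either strand, stands in 17.9% of all promoters of the table, in 14 of 17 of the mitosis list and in 3 of 25 of the DNA replication list. Kif23 read 10.20, 10.15 and 10.28 in normoxia and 11.42, 11.26 and 11.29 in the negative control (1.11 ± 0.07, adjusted p = 5.6e-09). The checkpoint kinase Bub1 rose most, from 9.10, 8.85 and 9.18 to 10.38, 10.25 and 10.36 (1.29 ± 0.08, 2.44-fold, adjusted p = 3.9e-09). Cenpf rose by 1.25 ± 0.06, Cenpe by 1.18 ± 0.07, Kif20a by 1.16 ± 0.06 and the spindle motor Kif11 by 1.10 ± 0.06. The proliferation marker Mki67 rose by 0.67 ± 0.06 and Cdk1 by 0.59 ± 0.06, and the smallest rises were those of Aurkb (0.45 ± 0.08) and Ccna2 (0.44 ± 0.08).

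DNA replication genes did not move as a group. Of 25 measured, 6 were called higher and 8 lower, with a median of -0.15. Over all genes 14.6% were called higher and 15.7% lower. Without array c of the negative control 5 were called lower. Mcm2, a subunit of the replicative helicase, fell from 9.78, 9.65 and 9.79 to 8.94, 8.97 and 9.08 (-0.74 ± 0.06, adjusted p = 2.5e-07). Other subunits of the same helicase differed, as Mcm4 rose by 0.21 ± 0.05 and Mcm6 read -0.02 (adjusted p = 0.84). The ribonucleotide reductase subunits were likewise opposed, with Rrm2 at -0.78 ± 0.06 and Rrm1 at 0.31 ± 0.06. A second, far dimmer probe set of Rrm2 (level 3.44 in normoxia) differed by -0.04. The chromatin assembly factor Chaf1b fell by 0.60 ± 0.08. Cdc45, a component of the active replicative helicase, read 7.55, 7.48 and 7.60 in normoxia and 7.80, 7.78 and 7.75 in the negative control (0.24 ± 0.06, adjusted p = 0.0049).

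Known targets of p53 rose along with the mitosis genes. Of 18 measured, 14 were called higher and 1 lower, with a median of 0.84. Dglucy, a mitochondrial enzyme of D-glutamate metabolism, read 7.06, 7.40 and 7.37 in normoxia and 9.27, 9.39 and 9.26 in the negative control (2.03 ± 0.09, 4.08-fold, adjusted p = 3.2e-10). The cell cycle inhibitor Cdkn1a went from 10.48, 10.35 and 10.42 to 11.53, 11.59 and 11.55 (1.14 ± 0.06, 2.21-fold, adjusted p = 1.2e-09). Plk2 rose by 1.72 ± 0.10, Eda2r by 1.26 ± 0.08, Btg2 by 1.26 ± 0.08, and Mdm2, which restrains p53, by 0.83 ± 0.06. The apoptosis genes Bbc3 (0.16, adjusted p = 0.23) and Pmaip1 (-0.01) did not pass, and Sesn1 fell by 0.40 ± 0.07.

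**Figure D4:**
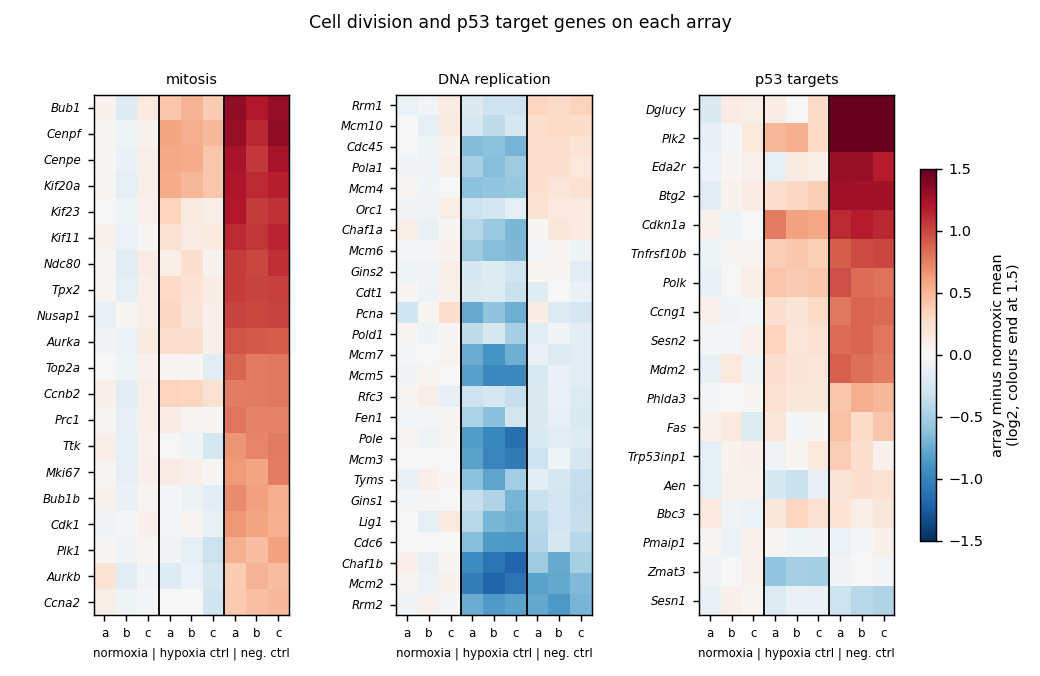
Mitosis, DNA replication and p53 target genes (rows) on the 9 arrays of normoxia, the hypoxia control and the negative control (columns), as the difference of each array from the normoxic mean (log2; colours end at 1.5). All 20 mitosis genes are red on the negative control arrays, and all 25 replication genes are blue on the hypoxia control arrays.

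Interferon response genes rose in part. Of 24 measured (27 listed), 15 were called higher and 2 lower, with a median of 0.38. The RNA sensor Ddx58 (RIG-I) has a promoter with the letters GAAANNGAA, the core of the interferon element, on its reverse strand at position 3 (in capitals as they read on the forward strand), printed from RefSeq (GRCm38.p6), at chr4:40239776-40240075, minus strand, as an example of that list.
Ddx58: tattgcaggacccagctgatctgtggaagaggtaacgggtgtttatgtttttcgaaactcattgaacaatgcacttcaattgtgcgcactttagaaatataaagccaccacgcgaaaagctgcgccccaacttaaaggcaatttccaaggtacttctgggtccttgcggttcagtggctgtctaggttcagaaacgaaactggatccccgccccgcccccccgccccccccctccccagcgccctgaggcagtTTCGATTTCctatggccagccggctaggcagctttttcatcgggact
Of all promoters in the table, 8.56% hold these letters on either strand, and 10 of 23 in the interferon list do. Ddx58 went from 8.82, 9.05 and 9.15 to 10.25, 10.20 and 10.18 (1.21 ± 0.08, 2.31-fold, adjusted p = 1.1e-08). The exonuclease Isg20 rose by 1.86 ± 0.09, Oasl2 by 1.37 ± 0.15, the interferon signalling brake Usp18 by 0.84 ± 0.11 and the RNA sensor Ifih1 by 0.66 ± 0.13. Off the list, Ifi204, an interferon-inducible gene, went from 3.13, 3.09 and 3.12, at the floor of the arrays, to 6.03, 6.10 and 6.09 (2.96 ± 0.14, adjusted p = 5.4e-10); it belongs to a family of close copies, so its value is uncertain. Other interferon genes went down or did not pass. Ifit2 fell by 0.65 ± 0.11 and the chemokine Cxcl10 by 0.43 ± 0.08, while Rsad2 (-0.25), Mx1 (-0.26) and Ifit3 (0.31) missed the threshold. Levels in this list were mostly low, with Oasl2 at 6.13 and Ifih1 at 6.28 in normoxia.

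Further single genes led the falls. The mitochondrial carrier Slc25a35 went from 10.82, 10.89 and 10.80 to 8.82, 8.97 and 8.66 (-2.02 ± 0.07, to 24.7%, adjusted p = 1.4e-11). The sialyltransferase St6galnac3 fell by 1.94 ± 0.09, the protease Bace2, which cleaves Pmel, by 1.94 ± 0.09, the lipid transporter Abca12 by 1.92 ± 0.08 and the kinase regulator Mob3b by 1.92 ± 0.08. The tetraspanin Tspan10 fell by 1.76 ± 0.06, the glycosyltransferase Mgat5 by 1.68 ± 0.06, the gamma-secretase subunit Psen2 by 1.62 ± 0.06 and the arginine deiminase Padi2 by 1.59 ± 0.07. Smpdl3a fell by 1.79 ± 0.08. Second probe sets of Padi2 (-0.09) and Smpdl3a (0.12) did not show the fall. Among the rises outside the lists were the citramalyl-CoA lyase Clybl (2.74 ± 0.07) and the signalling inhibitor Spry3 (2.64 ± 0.08).

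The hypoxia control, set against the same 3 normoxic arrays, had 2190 genes higher (9.87%) and 2474 lower (11.2%), with 128 and 30 at least 2-fold. Because the normoxic arrays are shared, values of the 2 comparisons are given side by side, and the test of a difference is the negative control against the hypoxia control. By that test 1730 genes were higher in the negative control (7.80%) and 1666 lower (7.51%). Hypoxia adaptation genes had medians of 1.34 and 1.29 in the negative and hypoxia controls, with 2 of 25 members higher and 7 lower between them. Differences in that list ran from -0.79 to 0.46. For Bnip3 the difference was -0.03 (95% interval -0.17 to 0.12), for Prelid2 -0.10 (-0.32 to 0.12), for Pdk1 0.02 (-0.18 to 0.22) and for Slc2a1 0.07 (-0.03 to 0.16). Glycolysis had medians of 0.91 and 0.95, and by this test 5 members were lower and 1 higher in the negative control. Among the lower were Pgam1 (-0.52 ± 0.07, adjusted p = 1.2e-04) and Aldoc (-0.52 ± 0.10, adjusted p = 0.0014). Outside these lists, Pcsk6 stood at 2.26 in the hypoxia control and 3.25 in the negative control (difference 0.99 ± 0.06, adjusted p = 3.3e-08). Kitl stood at 1.22 and 2.54 (1.32 ± 0.06, adjusted p = 7.0e-09).

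The lists of division, pigment, p53 and interferon genes were among those that separated the hypoxic controls. By the same test 9 of 18 lysosome genes were lower in the negative control and 0 higher. Of 16 contractile genes 7 were higher and 0 lower, and of 19 secreted factors 7 were higher and 1 lower. Of 16 cholesterol synthesis genes 6 were lower and 1 higher. Medians for mitosis were 0.87 in the negative control and 0.15 in the hypoxia control, and all 20 members were higher in the former by test. DNA replication stood at -0.15 and -0.61, all 25 members were called lower than normoxia in the hypoxia control, and 19 of 25 were higher in the negative control than in it. Cdc45, for example, read 6.90, 6.93 and 6.85 on the hypoxia control arrays, below both other groups (difference 0.89 ± 0.06, adjusted p = 8.3e-08). Melanin synthesis stood at -0.99 and -0.30, with 9 of 11 members lower in the negative control. In Slc24a4 the hypoxia control arrays read 9.71, 9.86 and 9.97, like the normoxic 9.79, 9.73 and 9.66, and the difference from the negative control was -1.19 ± 0.08 (adjusted p = 8.3e-08). Ednrb stood at -2.32 and -1.08 and Rab27a at -1.99 and -0.72. The p53 targets had medians of 0.84 and 0.20 (13 of 18 higher, 1 lower) and the interferon list 0.38 and 0.04 (13 of 24 higher, 1 lower). Dglucy stood at 2.03 and 0.13 (difference 1.90 ± 0.09, adjusted p = 9.6e-09) and Ddx58 at 1.21 and 0.18 (1.03 ± 0.08, adjusted p = 3.4e-07).

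**Figure D5:**
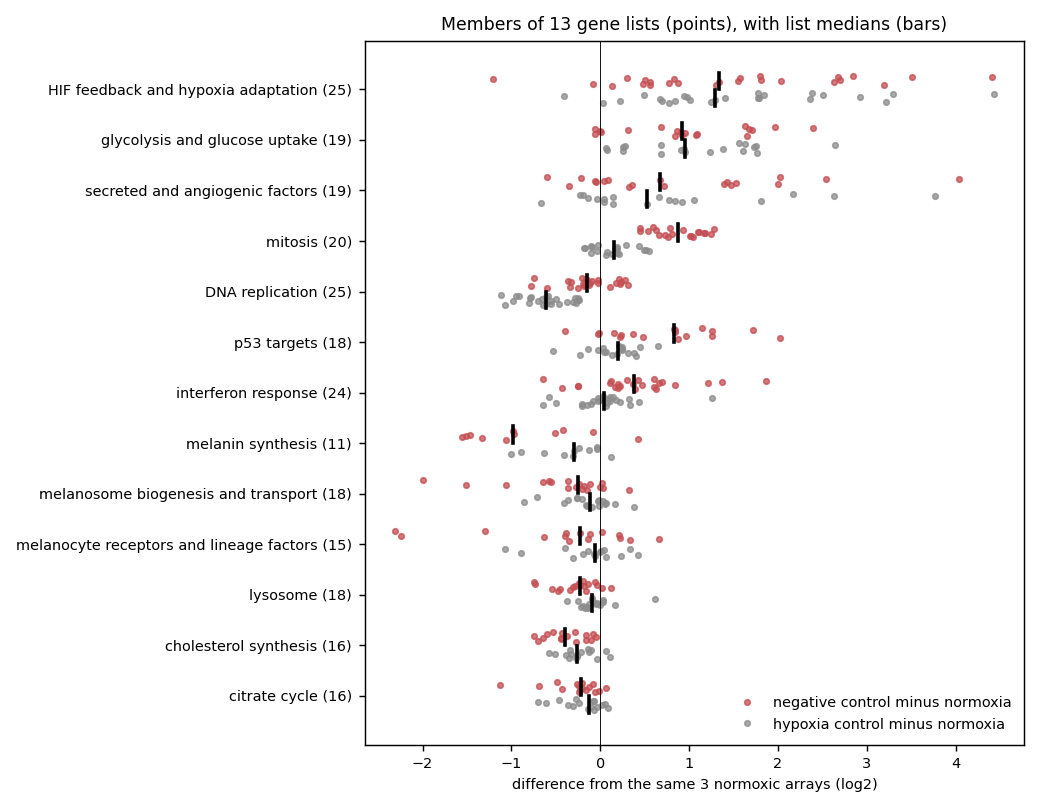
Differences from the same 3 normoxic arrays (log2) of the members of 13 gene lists, for the negative control (red) and the hypoxia control (grey), with each list's median as a bar and the number of genes measured in parentheses. Medians of hypoxia adaptation (1.34 and 1.29) and glycolysis (0.91 and 0.95) lie close together, and those of mitosis (0.87 and 0.15) and melanin synthesis (-0.99 and -0.30) lie apart.

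Genes that differed most between the hypoxic controls were of several kinds. Besides Dglucy and Ifi204, the negative control was higher in the serotonin receptor Htr5b, whose arrays read 6.89, 6.95 and 6.63 in normoxia, 6.92 to 7.09 in the hypoxia control and 8.66, 8.68 and 8.76 in the negative control (1.69 ± 0.09 between the hypoxic groups, adjusted p = 2.6e-08). Its hypoxia control arrays lay near normoxia. The laminin receptor subunit Itga7 differed by 1.58 ± 0.09, the DNA damage-induced Ddias by 1.57 ± 0.06, the TNF receptor family member Tnfrsf23 by 1.52 ± 0.13 and the interferon-inducible ligase Herc6 by 1.38 ± 0.08. The negative control was lower in Bace2 (-1.39 ± 0.09), Irf4 (-1.36 ± 0.06), Tspan10 (-1.21 ± 0.06), Mgat5 (-1.17 ± 0.06) and Padi2 (-1.03 ± 0.07).

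Several metabolic and housekeeping lists leaned down in the negative control, with medians nearer 0 than that of melanin synthesis (-0.99). Of 16 cholesterol synthesis genes 12 were called lower and 0 higher, with a median of -0.40, led by Msmo1 (-0.74 ± 0.05) and the feedback protein Insig1 (-0.70 ± 0.05). In the citrate cycle 10 of 16 were lower and 0 higher (median -0.22), with the dehydrogenase Idh2 falling from normoxia by 1.13 ± 0.05 and Ogdh by 0.69 ± 0.06. The respiratory chain moved less, with 8 of 26 lower and 0 higher (median -0.07), led by the complex I subunit Ndufv1 (-0.69 ± 0.06). Over all genes 15.7% were called lower and 14.6% higher. Of 18 genes of fatty acid handling 9 were lower and 2 higher. Cpt1a, which admits fatty acids to mitochondria, fell by 0.99 ± 0.05, and Hilpda, which blocks the release of stored fat, rose by 0.86 ± 0.06. Of 18 lysosome genes 13 were lower and 0 higher (median -0.23), among them the proton pump subunit Atp6v0a1 (-0.74 ± 0.06) and the regulator Tfeb (-0.48 ± 0.07). Chaperones of the endoplasmic reticulum and unfolded protein response genes numbered 10 of 18 lower and 2 higher (median -0.23), with Herpud1 at -0.73 ± 0.06 and Hsp90b1 at 0.54 ± 0.05. In ribosome biogenesis 8 of 18 were lower and 3 higher (median -0.18).

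Targets of the stress factor ATF4 mostly fell or did not pass. Of 19 measured, 8 were called lower and 1 higher, with a median of -0.11, and the member called higher was Vldlr, which the hypoxia adaptation list also holds. The large amino acid transporter Slc7a5 fell by 1.23 ± 0.06, the serine enzyme Shmt2 by 0.99 ± 0.07 and Chac1 by 0.53 ± 0.08. The classic targets Ddit3 (0.18, adjusted p = 0.053) and Trib3 (-0.01, adjusted p = 0.95) did not pass, though under some alternatives 3 members of the list were called higher. In the hypoxia control the list had a median of -0.21, with 10 called lower and 1 higher.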

How the data were processed

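RNA from the 15 cultures was labelled with biotin and hybridised to one-colour Affymetrix arrays. The authors deposited a table of log2 intensities for 41345 probe sets. The submitters' processing notes name RMA and Partek without version or settings; batches, scan dates and detection calls were not stated in the labels. RMA normalizes between arrays, so a shift of all genes together would be lost and folds of dim genes are compressed.

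Probe sets with exactly 1 gene symbol in the platform annotation were kept (23521; 1814 had several and 16010 none), and 23328 of them were found in RefSeq (GRCm38.p6). Each gene was represented by its brightest probe set on average (1082 genes had more than 1), which left 22180 genes. The 15 arrays were fitted with limma 3.58.1 (R 4.3.3), with a mean for each of 5 groups and eBayes, two-sided, adjusted by Benjamini-Hochberg over all genes with a threshold of 0.05. The fit was first tested on simulated data. Figures were drawn with matplotlib in Python. No detection filter was applied.

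The members, the 27 gene lists (520 genes, 482 measured) and the tests were chosen with earlier results of these data known. Genes named are the 15 largest rises and falls with groups that do not overlap, the 10 largest differences between the hypoxic controls in each direction and among genes with opposite calls, list members and cell type markers; genes without an established symbol were left unnamed. Kitl and further list members (among them Gapdh, Eno2, Pkm, P4ha2, Egln1, Mki67, Mdm2 and list members that did not pass) were named after their values were seen. Alternatives changed the normalization, filter (lowest 25% and 50% of genes left out), probe set rule, variance settings, array weights, block and groups fitted, or left out an array.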

Additional observations from a re-analysis of the deposited data

Results flagged for a closer look

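Between the hypoxic controls, 121 of 22180 genes were called in opposite directions from the same 3 normoxic arrays. The difference between the hypoxic groups also passed in all 121 (limma adjusted p under 0.05). That follows from choosing genes by opposite calls, so it adds nothing. Of these, 95 were above normoxia in the negative control and below it in the hypoxia control, and 26 the reverse. The 10 with the largest difference, negative control minus hypoxia control on the log2 scale, were of mixed function. F11r, a tight junction protein, differed by 1.40 and read 7.87, 7.78 and 7.97 in normoxia, 7.55, 7.55 and 7.37 in the hypoxia control and 8.85, 8.96 and 8.86 in the negative control. The kinetochore protein Cenpk differed by 1.36, the cohesin acetyltransferase Esco2 by 1.20 and Shcbp1 by 1.12. Atp6v0d2, a subunit of the lysosomal proton pump, differed by -1.36, with hypoxia control arrays at 6.25, 6.89 and 7.06, normoxic arrays at 6.10, 6.16 and 6.09 and negative control arrays at 5.57, 5.34 and 5.21. The ferric reductases Frrs1 and Steap2 differed by 1.15 and 1.09, the complement protease Masp1 by 1.08, and Mboat1 and Larp1b by 1.05 each. What the negative control was given is not stated in the labels, and its part in these differences cannot be told apart from the group.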

How the results depend on the processing

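The count of genes called in the negative control against normoxia (6723) ran from 5786, with only the 2 groups compared in the fit, to 7005 with trend and robust eBayes, leaving out single arrays aside, and from 5940 to 6293 without each array in turn. Called and 2-fold genes (390) ran from 350 to 404, and from 375 to 409. The negative control against the hypoxia control (3396) ran from 2941 to 4030, and from 2518 to 3053, and the hypoxia control against normoxia (4664) from 4173 to 5241, and from 3807 to 4448. The share of called genes that were higher was 48.0% as deposited, 51.8% after another quantile normalization and 48.1% after median centring. The replicate letters did not pair the arrays: deviations of same-letter arrays correlated at -0.133, 0.0438 and -0.171. Correlations of different-letter pairs ran from -0.125 to 0.234. With the replicate block 6529, 3137 and 4460 genes were called in these comparisons. Of 252 called genes that were followed singly, 238 kept direction and call under every alternative that held them, and none reversed. Genes taken only as cell type markers, among them Mitf, Dct, Pmel and Sox10, were not followed singly. The filters on low levels left out dim genes, among them Ifi204 and Egln3. Weaker under at least 1 were Acta2, Dnajb9, Egfr, Gclc, Gins1, Hif1a, Jund, Kdm4a, Nop58, Orc1, Pdha1, Plin2, Vegfc and Vhl. Ap3d1, Cnn1, Ddit3, Egln2, Ifit3, Mx1, Rsad2, Vim and Zeb1 passed under at least 1 alternative. In the lists, the moves past 1.5 times were in counts of 3 or fewer members, besides the DNA replication genes called lower (8, and 5 without array c of the negative control). Precision is limited by the number of arrays.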

Other observations

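Other gene groups also moved. Of 19 AP-1 and immediate early genes, 10 were called higher and 3 lower in the negative control against normoxia, with Fosl2 at 1.57 ± 0.05, Egr1 at 1.34 ± 0.09 and Jun at 1.16 ± 0.07, while the phosphatase Dusp4 fell by 0.77 ± 0.05 and Myc by 0.37 ± 0.06. Egr1 stood at 0.31 in the hypoxia control (difference 1.03 ± 0.09, limma adjusted p = 1.8e-06). Among 20 genes linked to neural crest-like and dedifferentiated pigment cells, 7 rose and 2 fell. The matricellular gene Ccn1 rose by 1.70 ± 0.09, fibronectin (Fn1) by 0.90 ± 0.05, Nes by 0.60 ± 0.06 and Axl by 0.17 ± 0.04. Those that fell were Tgfbr2 (-0.53) and Egfr, the latter with a limma adjusted p of up to 0.053 under the alternatives. Vim (0.04, and 0.49 by a second probe set), Wnt5a (-0.14) and Zeb1 (-0.16) did not pass. Of 21 collagen and integrin genes 12 rose and 3 fell. The integrins Itga2 and Itga3 rose by 1.14 ± 0.07 and 1.13 ± 0.07, and Itga3 stood at 0.16 in the hypoxia control (difference 0.97 ± 0.07, limma adjusted p = 2.0e-07), whereas Col1a1 fell by 0.58 ± 0.09 and the crosslinking enzyme Lox by 0.72 ± 0.08.

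Contractile genes numbered 9 of 16 higher and 1 lower, led by the integrin Itga7 (2.06 ± 0.09), Tpm1 (0.66 ± 0.05) and Tpm4 (0.65 ± 0.07). The member called lower was the smooth muscle actin Acta2. Under the alternatives it ran from -0.39 to -0.19, with a limma adjusted p of up to 0.065. The smooth muscle genes Tagln (-0.03) and Cnn1 (0.19) did not pass. Of 14 antioxidant genes under Nrf2, 5 rose and 4 fell, with heme oxygenase (Hmox1) at 1.28 ± 0.06, Me1 at 0.79 ± 0.05 and Txnrd1 at -0.41 ± 0.05. In the circadian clock 5 of 13 rose and 5 fell. The repressor Ciart rose by 1.88 ± 0.08 and the activator Arntl by 0.89 ± 0.06, and Tef fell by 0.62 ± 0.07, although a second probe set of Tef read 0.03.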
